A study of Mus musculus with 2 samples.

Results

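Of the 10 T-box and GATA transcription factor genes described here, 9 are listed in the expression table of pericardial fat (pericardial adipose tissue, PAT) out of 23609 genes listed in all. The members were taken by gene symbol. They are the T-box genes Tbx2, Tbx3, Tbx4, Tbx5, Tbx15, Tbx18 and Tbx20 and the cardiac GATA genes Gata4, Gata5 and Gata6, and Tbx15 is the member that is not listed and not analysed here. PAT was taken 24 h after the LAD, the coronary artery of the front wall, had been tied off, which infarcts part of the left ventricle. Each library is a pool, of 3 P2Y4 KO mice in the case of the knockout library and of 3 wild type (WT) mice in the other, both of the C57BL/6J strain and both with LAD ligation, so that the only difference between the groups given in the labels is the loss of the P2Y4 nucleotide receptor in the KO mice. The study used young adult mice of both sexes, and the sex and age of the pooled mice are not in the labels. No promoter or cell type that limits the loss of the receptor is named for the KO line, which was made in the laboratory of the study. Each genotype has 1 library, so that no difference below has a replicate check, and no p-value is given.

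T-box factors bind DNA through a shared domain, the T-box, and many of them set out the chambers, the conduction system and the epicardium of the embryonic heart. GATA4, GATA5 and GATA6 are zinc finger factors that bind the GATA motif, work together with T-box and homeobox factors in heart muscle, and are also made in the mesothelium, a thin sheet of cells over the heart and around the pericardial cavity. GATA6 is also known as a factor of the macrophages that live in serous cavities of mice.

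The deposited values are scaled reads that sum to 20003048 in the P2Y4 KO and 20009847 in the WT library, and CPM (reads per 1000000 reads of the library) was the value divided by 20. The fitted depth was 14885824 reads in the P2Y4 KO library and 15508820 reads in the WT library. P2ry4, the gene of the deleted receptor, is not listed, so the labels could not be checked against it. A filter asked for CPM above 0.5 in 1 or both libraries, and 18474 genes passed it, all 9 listed members among them. "Higher" is used of genes whose level in P2Y4 KO PAT was 2 or more times that in WT PAT, and "lower" of genes at 0.5 times or less. Ratios carry exact 95% intervals (Clopper-Pearson) and levels exact 95% Poisson intervals. Both cover counting error between these 2 libraries only.

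Every listed member had a ratio below 1 (on these totals, since scaling by ribosomal protein genes turned Tbx3 to 1.07). As genes with a WT value under 2 are not listed, the level of Tbx15 in P2Y4 KO PAT cannot be seen. Of the 9 members, 4 were lower in P2Y4 KO than in WT PAT (Tbx18, Tbx20, Gata5 and Tbx2), 5 lay within a factor of 2 and none was higher. Over all genes past the filter, 4.4% were lower, 8.75% were higher and 49.4% had a ratio below 1. The median log2 ratio of the members was -0.94, beside 0 over all genes. The 6 listed T-box members together had 505 reads in P2Y4 KO and 1182 reads in WT PAT, a ratio of 0.446 (0.4003 to 0.494), and the 3 GATA members had 1435 reads in P2Y4 KO and 2547 reads in WT PAT, a ratio of 0.587 (0.550 to 0.626). Without Tbx18, the most abundant T-box member, the other 5 had 228 reads in P2Y4 KO and 404 reads in WT PAT, a ratio of 0.588 (0.498 to 0.693). In this bulk tissue, fewer cells of a type and less RNA per cell cannot be told apart.

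**Figure D1:**
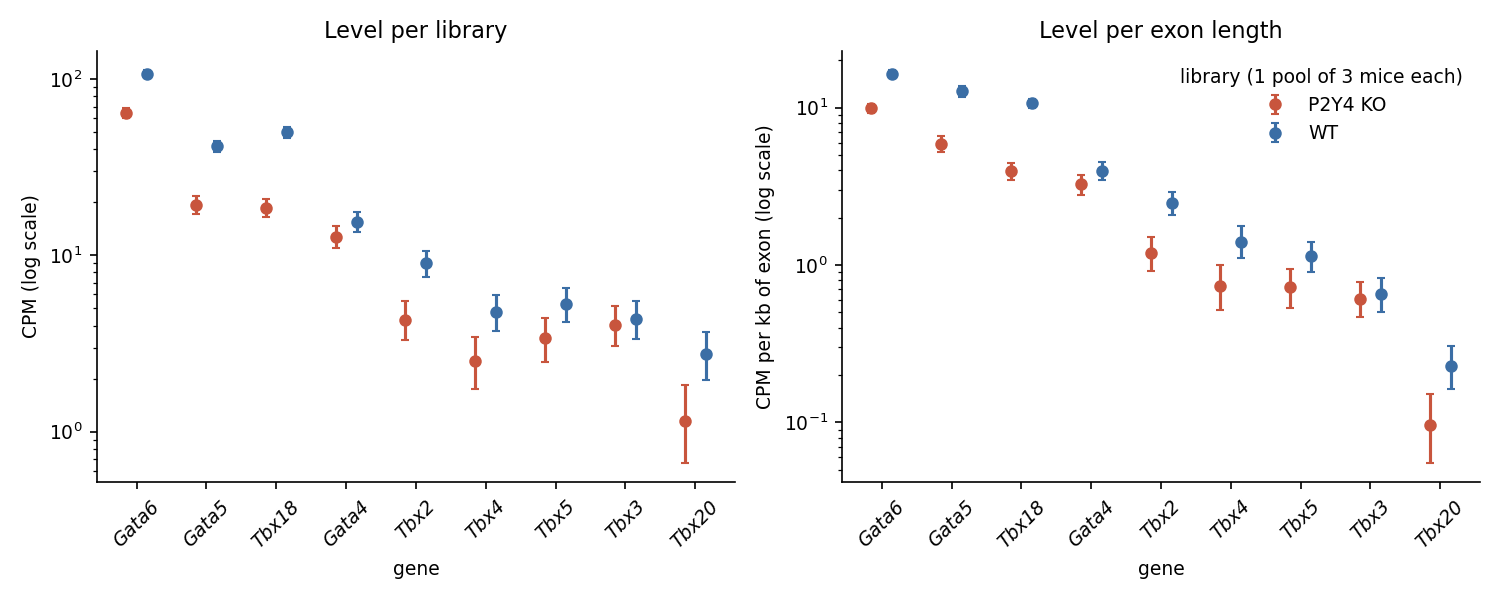
Levels of the 9 listed members in the P2Y4 KO library (left point of each pair) and the WT library (right point), as CPM in the left panel and as CPM per kb of exon in the right panel, both on log axes, with exact 95% Poisson intervals. Gata6 stood highest and Tbx20 lowest in both libraries, and the P2Y4 KO point lies below the WT point for every gene.

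Tbx18 had the lowest ratio of the members. It encodes a transcriptional repressor of the epicardium, of the sinus node and of mural cells of vessels. It stood at CPM 18.65 (16.5 to 20.9) from 277 reads in P2Y4 KO PAT, against CPM 50.2 (46.7 to 53.8) from 778 reads in WT PAT. The ratio of 0.372 (0.322 to 0.426) lay wholly under 0.5, as it did for no other member and for 1.04% of all genes past the filter, and only 1.96% of genes had a lower ratio. Tbx18 took 54.9% (50.4 to 59.3%) of the reads of the T-box members in P2Y4 KO PAT and 65.8% (63.0 to 68.5%) in WT PAT, intervals that do not overlap. Tbx18 (ENSMUSG00000032419) is a gene of the minus strand of chromosome 9, with its ends at 87702800 and 87731260 (GRCm38, GENCODE M21, as for all members).

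Tbx20, of the same subfamily and needed for growth of the embryonic heart, was the least abundant member. It had 17 reads in P2Y4 KO (CPM 1.15, 0.665 to 1.83) and 42 reads in WT PAT (CPM 2.75, 1.95 to 3.66). The ratio was 0.418, and its interval from 0.225 to 0.757 runs past 0.5, so that at this depth its place under the threshold is uncertain. Tbx20 (ENSMUSG00000031965) is on chromosome 9 from 24718138 to 24774303, minus strand.

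Tbx2 and Tbx3 encode closely related repressors that keep the atrioventricular canal and the conduction system from taking on the chamber programme. They stood apart in these libraries. Tbx2 had 64 reads in P2Y4 KO PAT (CPM 4.3) and 139 in WT PAT (CPM 9), a ratio of 0.478 (0.351 to 0.649). Tbx3 had 60 reads in P2Y4 KO PAT (CPM 4.05) and 67 in WT PAT (CPM 4.35), a ratio of 0.931 (0.647 to 1.34), so that no difference was detectable at this depth. The share of Tbx3 in the reads of the T-box members was 11.9% (9.19 to 15.03%) in P2Y4 KO and 5.67% (4.42 to 7.14%) in WT PAT. The ratio intervals of Tbx2 and Tbx3 meet at their ends only, with an upper bound of 0.649 for Tbx2 and a lower bound of 0.647 for Tbx3.

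Tbx4 and Tbx5 encode activators of limb bud outgrowth, and both are also made in lung mesenchyme. TBX5 is besides a factor of the atria and the conduction system, and its loss of function in humans causes Holt-Oram syndrome of heart and hand. Tbx4 had 37 reads in P2Y4 KO PAT (CPM 2.5) and 74 in WT PAT (CPM 4.8), and its ratio of 0.521 (0.341 to 0.783) lies just above the threshold, as that of Tbx2 lies just under it. Tbx5 had 50 reads in P2Y4 KO PAT (CPM 3.4) and 82 in WT PAT (CPM 5.3), a ratio of 0.642 (0.438 to 0.914).

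These 4 genes form pairs of nearby genes that arose from an ancestral tandem pair. On chromosome 11, Tbx2 (ENSMUSG00000000093, 85832551 to 85841948) and Tbx4 (ENSMUSG00000000094, 85886422 to 85916097) lie 44.5 kb apart on the plus strand, with 1 annotated protein-coding gene between them. On chromosome 5, Tbx3 (ENSMUSG00000018604, 119670669 to 119684724) and Tbx5 (ENSMUSG00000018263, 119832668 to 119885219) lie 147.9 kb apart, also on the plus strand. The ratios were 0.478 and 0.521 in the chromosome 11 pair and 0.931 and 0.642 in the chromosome 5 pair, with intervals that overlap within each pair.

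Gata6 was the most abundant member in both libraries. It is a factor of heart and endoderm development and, in adult mice, of serous cavity macrophages. It had 959 reads in P2Y4 KO PAT (CPM 64.45, 60.4 to 68.6) and 1662 in WT PAT (CPM 107.2, 102 to 112). Its ratio was 0.601 (0.555 to 0.651), within the factor of 2, and the interval does not reach that of Tbx18 below it or that of Gata4 above it.

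Gata5, known from the endocardium and the epicardium, was lower. It had 287 reads in P2Y4 KO PAT (CPM 19.3, 17.1 to 21.6) and 645 in WT PAT (CPM 41.6, 38.4 to 44.9), a ratio of 0.464 (0.402 to 0.534). Gata4, the partner of TBX5 and NKX2-5 at heart muscle genes, had 189 reads in P2Y4 KO PAT (CPM 12.7, 10.9 to 14.6) and 240 in WT PAT (CPM 15.5, 13.6 to 17.6), a ratio of 0.819 (0.674 to 0.997). The Gata4 interval does not overlap that of Gata5 or Gata6. Gata5 made up 20% (17.96 to 22.2%) of the reads of the 3 genes in P2Y4 KO PAT and 25.3% (23.6 to 27.1%) in WT PAT, while Gata4 made up 13.2% (11.5 to 15.03%) in P2Y4 KO and 9.42% (8.32 to 10.6%) in WT PAT. The share of Gata6 was 66.8% (64.3 to 69.3%) in P2Y4 KO and 65.3% (63.4 to 67.1%) in WT PAT, within counting error. Gata4 (ENSMUSG00000021944) lies on chromosome 14 from 63198922 to 63271692 and Gata5 (ENSMUSG00000015627) on chromosome 2 from 180325133 to 180334699, both on the minus strand, and Gata6 (ENSMUSG00000005836) on the plus strand of chromosome 18 from 11052064 to 11085635.

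Levels can be set against each other only per length, here as CPM per kb of annotated exon. In P2Y4 KO PAT the order was Gata6 (9.90), Gata5 (5.89), Tbx18 (3.95), Gata4 (3.25), Tbx2 (1.19), Tbx4 (0.735), Tbx5 (0.727), Tbx3 (0.611) and Tbx20 (0.0959). In WT PAT the order was the same, with Gata6 at 16.5, Gata5 at 12.7, Tbx18 at 10.6, Gata4 at 3.97, Tbx2 at 2.48, Tbx4 at 1.41, Tbx5 at 1.13, Tbx3 at 0.657 and Tbx20 at 0.229. Neighbours whose counting intervals overlap are Tbx4 and Tbx5 in both libraries and, in P2Y4 KO PAT, also Tbx18 and Gata4, Tbx2 and Tbx4, and Tbx5 and Tbx3. The gap between Tbx18 and Gata4 that was seen in WT PAT thus lay within counting error in P2Y4 KO PAT.

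**Figure D2:**
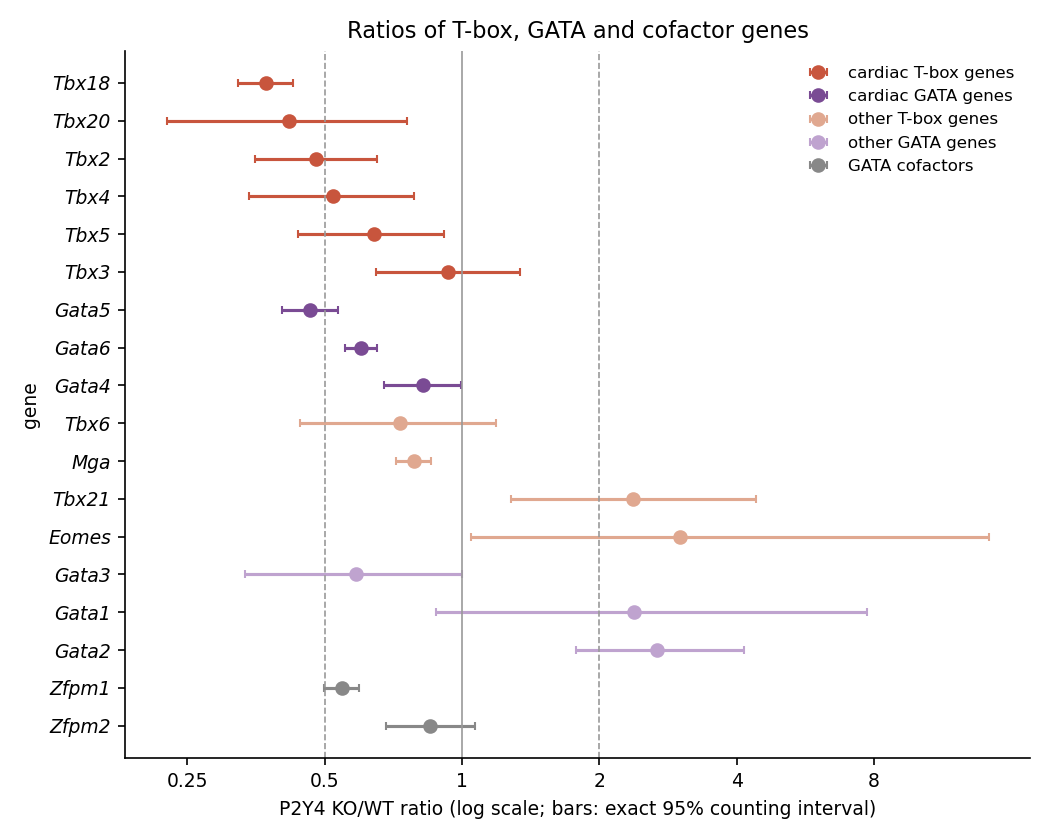
P2Y4 KO/WT ratios on a log axis with exact 95% counting intervals and dashed lines at 0.5 and 2. Shown are the T-box and GATA members (labelled cardiac), the other T-box and GATA genes past the filter and the GATA cofactors. The 9 members lie from 0.372 (Tbx18) to 0.931 (Tbx3), while Tbx21, Eomes, Gata1 and Gata2 lie above 2.

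For 3 of the 4 genes that were lower, the RefSeq promoter table (GRCm38.p6) holds a sequence, and their 250 bases before the start site are shown as the start regions of the members that were lower. Each is given 5′ to 3′ on the strand of its gene, with the CpG dinucleotides in capitals. Tbx18 is at chr9:87731261-87731510, Tbx20 at chr9:24774304-24774553 and Gata5 at chr2:180334680-180334929, all on the minus strand.
Tbx18: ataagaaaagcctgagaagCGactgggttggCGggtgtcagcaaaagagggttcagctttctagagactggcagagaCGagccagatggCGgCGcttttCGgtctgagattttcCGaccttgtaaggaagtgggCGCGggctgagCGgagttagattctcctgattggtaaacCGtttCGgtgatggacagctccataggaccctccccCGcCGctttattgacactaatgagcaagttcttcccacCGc
Tbx20: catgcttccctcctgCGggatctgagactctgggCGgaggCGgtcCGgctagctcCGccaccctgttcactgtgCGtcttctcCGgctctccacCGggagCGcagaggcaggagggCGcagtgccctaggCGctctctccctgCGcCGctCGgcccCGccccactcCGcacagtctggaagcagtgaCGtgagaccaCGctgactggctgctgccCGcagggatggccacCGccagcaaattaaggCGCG
Gata5: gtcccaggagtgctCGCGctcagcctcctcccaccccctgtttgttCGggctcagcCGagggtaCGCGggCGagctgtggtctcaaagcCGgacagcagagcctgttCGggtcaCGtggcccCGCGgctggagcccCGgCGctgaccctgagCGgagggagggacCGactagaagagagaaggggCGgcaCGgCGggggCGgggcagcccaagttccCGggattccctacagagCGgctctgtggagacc
The windows of Tbx20 and Gata5 hold 22 CpG each at 68.8% and 70% G and C, and that of Tbx18 holds 15 CpG at 54%, where the median over the 32851 promoters of the table is 6 CpG and 52.4%. Windows of members on the chromosome of Gata6 were left out, so that none is given for Gata6. Searched on both strands, none of the printed windows holds the T-box half-site AGGTGT or the GATA site AGATAA. Neither does that of Tbx4, a further member in the table. These letters are found in 11.83% and 9.988% of all promoters of the table. The absence says only that these letters are not in these windows.

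Several members share their start region with a gene on the opposite strand, and those partners had ratios near those of the members. D030062O11Rik, an annotated transcript that runs over the first part of Tbx18 and covers all 250 bases of the window printed above, had 33 reads in P2Y4 KO PAT (CPM 2.25) and 109 in WT PAT (CPM 7.05), a ratio of 0.319 (0.207 to 0.469). Gata5os, whose span overlaps 1843 bases of Gata5, had 53 reads in P2Y4 KO PAT (CPM 3.6) and 132 in WT PAT (CPM 8.55), a ratio of 0.421 (0.298 to 0.579). For 1010001N08Rik, which overlaps 504 bases at the start of Gata6, the counts were 122 reads in P2Y4 KO PAT and 240 in WT PAT, a ratio of 0.529 (0.422 to 0.661). In all these pairs the interval of the partner overlaps that of the member. Tbx3os1, opposite Tbx3, had 3 reads in P2Y4 KO PAT and 4 in WT PAT (0.833, 0.114 to 4.62), too few to tell. The library kit keeps the strand, but the strand setting of the counting is not given in the sources used here, and without strand the reads of such pairs cannot be told apart. Of the 50-base words of Tbx18 transcripts, 18.3% occur reversed in another annotated transcript, and of those of Gata5 5.05%. In the same direction, no member shares any 50-base word with another member, and with all other genes they share at most 15 words (0.325% of the words of Tbx5).

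**Figure D3:**
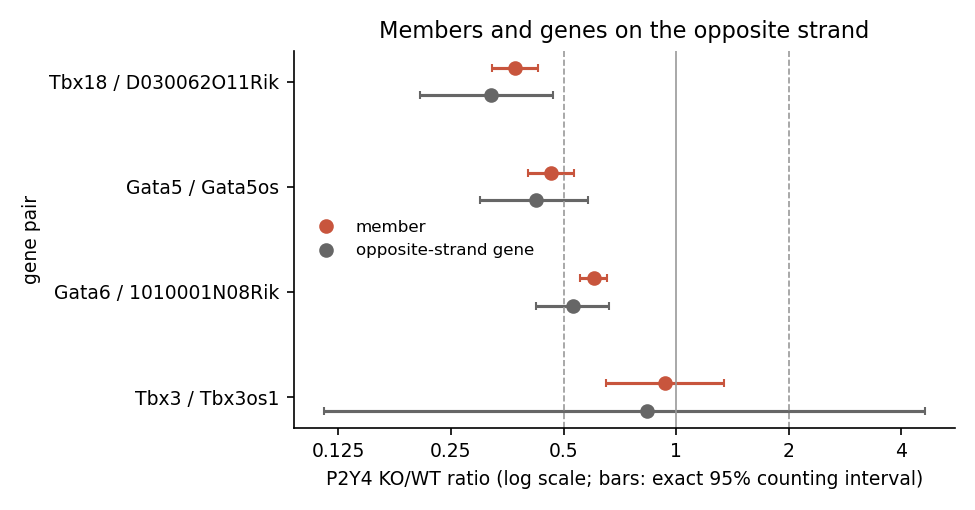
P2Y4 KO/WT ratios on a log axis with exact 95% counting intervals for 4 members (upper point of each pair) and the listed genes that overlap them on the opposite strand (lower point). The partner of Tbx18 lies at 0.319, that of Gata5 at 0.421 and that of Gata6 at 0.529, each with an interval that overlaps that of its member.

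The other genes of both families went different ways. Of the other T-box genes, 5 of 10 are listed and 4 passed the filter, and of these Tbx21 and Eomes were higher, while Mga and Tbx6 lay within the factor of 2. The 5 listed genes together had 981 reads in P2Y4 KO PAT and 1260 in WT PAT, a ratio of 0.811 (0.745 to 0.882), most of them from Mga. Tbx21, the T-bet factor of type 1 T cells and natural killer cells, had 38 reads in P2Y4 KO PAT and 17 in WT PAT (2.36, 1.28 to 4.40). Eomes, which works with it in cytotoxic lymphocytes, had 13 reads in P2Y4 KO PAT and 4 in WT PAT (3.00, 1.05 to 14.3), and it passed the filter through the P2Y4 KO library only. The ratio of Mga, a widely made T-box factor that also binds MAX, was 0.783 (0.717 to 0.854), and that of Tbx6 was 0.732 (0.440 to 1.19).

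Among the blood GATA genes, Gata1 and Gata2 were higher and Gata3 was within the factor of 2. Gata2, a factor of blood stem cells, mast cells and preadipocytes, had 85 reads in P2Y4 KO PAT and 33 in WT PAT (2.67, 1.78 to 4.14). For Gata1, the factor of red cell, mast cell and eosinophil lineages, 14 reads in P2Y4 KO PAT and 6 in WT PAT give a ratio of 2.38 with an interval from 0.878 to 7.72, which includes 1, and it too passed the filter through the P2Y4 KO library only. Gata3, of T helper and innate lymphoid cells, had a ratio of 0.585 (0.335 to 0.997). The GATA cofactors Zfpm1 (FOG1) and Zfpm2 (FOG2, the partner of GATA4 in the heart) had ratios of 0.545 (0.499 to 0.595) and 0.852 (0.680 to 1.07), both within the factor of 2.

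Of 15 transcription factors that work with T-box and GATA factors in heart development, 12 are listed and 10 passed the filter. None of the 10 was higher or lower, beside 13.1% of all genes past the filter, and their median log2 ratio was -0.32. Hand2, a helix-loop-helix factor of the ventricles, was nearest to the threshold with 36 reads in P2Y4 KO PAT and 75 in WT PAT (0.505, 0.326 to 0.754). Isl1, of heart progenitors and the sinus node, had a ratio of 0.616 (0.387 to 0.961), the Hippo pathway factor Tead1 0.602 (0.550 to 0.659), Srf 0.816 (0.750 to 0.886) and Mef2c 1.26 (1.05 to 1.51). Of the 10, 7 had a ratio below 1 and 3 above 1, the highest being Smyd1 at 1.57 (1.001 to 2.57). Nkx2-5, Hand1 and Irx4 are not listed. Genes with a WT value under 2 are not listed whatever their P2Y4 KO level, so the absence of higher genes holds for listed partners only.

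Genes known as targets of cardiac T-box and GATA factors mostly had ratios above 1. Of the 14 of 15 that are listed and past the filter, 7 were higher (among them Myh6, Nppa, Pln, Tnni3, Tnnc1 and Ryr2), Nppb was lower and 6 lay within the factor of 2. Of the 14, 5 passed the filter through the P2Y4 KO library only and Nppb through the WT library only, so that these had to differ. Of the 7, Myh6, Nppa, Pln, Tnni3 and Ryr2 are also on the list of cardiomyocyte markers. Myh6, the alpha myosin heavy chain, had 1707 reads in P2Y4 KO PAT and 4 in WT PAT (382, 173 to 1634). Nppb, the B-type natriuretic peptide gene, had 4 reads in P2Y4 KO PAT and 41 in WT PAT (0.113, 0.0264 to 0.281). Gja5 and Gja1, the connexin genes that TBX2 and TBX3 repress in the conduction system, had ratios of 1.39 (1.03 to 1.89) and 0.727 (0.688 to 0.769), and the cell cycle inhibitor genes Cdkn1a and Cdkn2a, repressed by the same factors in other cells, 1.14 and 1.49.

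Markers of the cells that could carry these factors had ratios on both sides of 1. All 14 mesothelial and epicardial markers had ratios below 1 and 11 were lower. The 14 had a summed CPM of 935 in P2Y4 KO PAT and 2729 in WT PAT (0.343, 0.336 to 0.349), and none is at 0 in P2Y4 KO PAT. The lower ones ran from the keratin genes Krt18 (0.230), Krt8 (0.234) and Krt19 (0.242), the uroplakin gene Upk1b (0.2498) and Msln (0.252) through Upk3b (0.279), Cldn15 (0.307), Lrrn4 (0.413) and Muc16 (0.474) to Rspo1 and Gpm6a (both 0.497). The other 3 were the transcription factor genes Bnc1 (0.549, 0.491 to 0.613) and Wt1 (0.557, 0.514 to 0.602) and the retinoic acid enzyme gene Aldh1a2 (0.687, 0.652 to 0.724). The summed ratio of the mesothelial list lies under the ratio of every listed member, and under the interval of each but Tbx18, Tbx20 and Tbx4. None of the 11 cavity macrophage markers was higher or lower, beside 13.1% of all genes past the filter. The summed CPM of these markers was 1615 in P2Y4 KO PAT and 1876 in WT PAT (0.861, 0.846 to 0.875). Of these 11, 9 had a ratio below 1, with a median log2 ratio of -0.47. They ran from Itga6 (0.563, 0.522 to 0.607), F10 (0.609) and Prg4 (0.638) to Serpinb2 (1.08) and Adgre1 (1.30, 1.24 to 1.35). The intervals of Itga6, F10, Prg4, Alox15, F5 and Icam2 overlap that of Gata6. Those of Garnl3, Vsig4, Timd4, Serpinb2 and Adgre1, and that of the summed list, lie above it.

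Heart muscle genes went the other way. All 12 cardiomyocyte markers past the filter were higher, with a summed CPM of 440 in P2Y4 KO PAT and 9.75 in WT PAT for the 13 of 14 that are listed. Of the 12, 8 passed the filter through the P2Y4 KO library only, and the other 4 were Myl7 (47.3), Tnni3 (33.5), Mybpc3 (5.12) and Ttn (3.04). Myl2, the listed marker under the filter, had 3 reads in P2Y4 KO PAT and 3 in WT PAT. Of the atrial and sinus node markers, 4 of 6 past the filter were higher (Myl7, Myl4 and, past the filter through the P2Y4 KO library only, Nppa and Shox2), while the pacemaker channel gene Hcn4 had 14 reads in P2Y4 KO PAT and 17 in WT PAT (0.864, 0.392 to 1.85). The summed CPM of this list was 202 in P2Y4 KO and 9.05 in WT PAT. Beside them, no listed T-box or GATA member had a ratio above 1 on the deposited scale.

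Of 12 smooth muscle and pericyte markers 11 passed the filter, 4 were higher (Cspg4, Notch3, Rgs5 and Abcc9) and none was lower, with a summed CPM of 346 in P2Y4 KO PAT and 273 in WT PAT. Fibroblast and preadipocyte markers had a summed CPM of 3036 in P2Y4 KO PAT and 3499 in WT PAT, and among these 10 genes Cd34 was lower and none was higher. Of 10 endothelial markers 4 were higher (Tie1, Vwf, Tek and Cdh5) and Kdr was lower, with a summed CPM of 253 in P2Y4 KO PAT and 201 in WT PAT. Of 10 adipocyte markers 7 were higher and none was lower. The 7 were Plin1, Lipe, Pparg, Cidec, Pnpla2, Adipoq and, past the filter through the P2Y4 KO library only, Lep. The list summed to CPM 4576 in P2Y4 KO PAT and 2476 in WT PAT, so that defining genes of fat were read in both libraries. Of 7 skeletal muscle markers past the filter 6 were higher (Acta1, Mylpf, Tnnt3 and, past the filter through the P2Y4 KO library only, Ckm, Myh1 and Myh4), and the list summed to CPM 32.9 in P2Y4 KO PAT and 5.9 in WT PAT. No listed marker of these lists is at 0 in P2Y4 KO PAT. In WT PAT none could be, since genes with a WT value under 2 are not listed. Of 8 lung epithelial markers 1 is listed (Ager, 0.784), and the levels of the others in P2Y4 KO PAT cannot be seen. The part of any of these cell types in the ratios of the members was not tested.

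**Figure D4:**
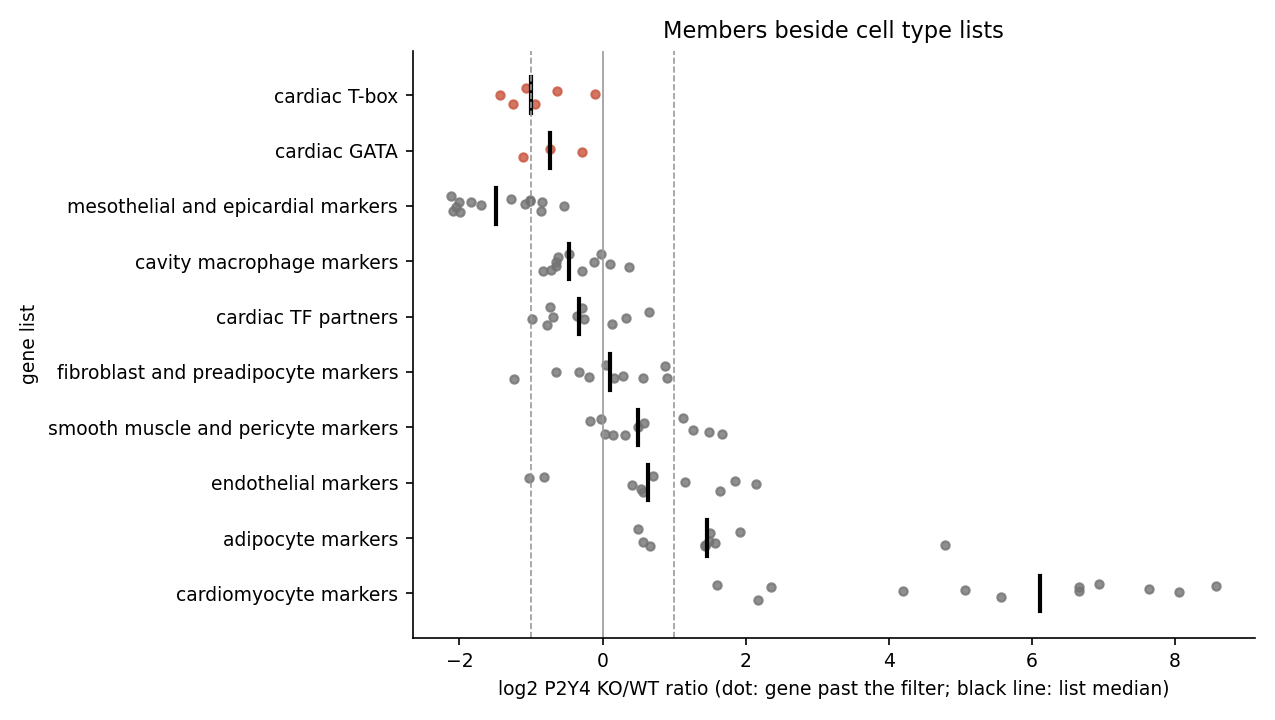
Log2 P2Y4 KO/WT ratios of the T-box and GATA members (red, labelled cardiac) and of cell type and partner lists (grey). Each dot is 1 gene past the filter, the black line is the list median, and dashed lines mark ratios of 0.5 and 2. The medians of the members are -1.003 for T-box and -0.73 for GATA genes. They lie between those of the mesothelial markers (-1.49) and the cavity macrophage markers (-0.47), while Tbx3 (-0.10) and Gata4 (-0.29) lie above both. The dots of the cardiomyocyte markers all lie above 0. Of these 12, 8 passed the filter through the P2Y4 KO library only, so that they had to.

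The call of 3 of the 4 lower members depended on the scale or the rule. Scaling the libraries so that 86 ribosomal protein genes had a median ratio of 1 shifted all log2 ratios up by 0.20. Then the ratios were 0.426 for Tbx18, 0.480 for Tbx20, 0.532 for Gata5 and 0.548 for Tbx2, so that Gata5 and Tbx2 lay within the factor of 2, and Tbx3 turned to 1.07. With 0.5 CPM added to both libraries, Tbx2 (0.505) and Tbx20 (0.508) lay within the factor of 2.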

How the data were processed

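Samples were grouped by genotype as given in the labels, with 1 pooled library for P2Y4 KO and 1 for WT PAT, so that no test across samples and no count model was possible. Per the labels and the study's methods, reads were trimmed with Trimmomatic, aligned to GRCm38.p4 (mm10) with STAR and counted per gene with HTSeq on the annotation of Ensembl release 87. Tool versions and the counting strand were not given in the sources used here, so none is named. The authors scaled the reads of each gene to a library total of 20000000 and rounded up, as the steps between values show, and this signal is what the main columns hold. Further deposited columns give the authors' own ratio of the genotypes, and a smaller table repeats them for genes they selected. Neither was used.

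CPM was the deposited value divided by 20, where the design had assumed counts or CPM. Reads were solved from the steps between values (1 read was worth 1.34 in the P2Y4 KO library and 1.29 in the WT library), and 99.8% of the P2Y4 KO values and 99.9% of the WT values equal a whole number of reads times that step, rounded up, with no tolerance. The depth limits what can be seen of genes with few reads: the filter of CPM above 0.5 takes 8 reads. The table lists no gene with a WT value under 2, the value of 1 read. A gene without reads in WT PAT is thus missing whatever its level in P2Y4 KO PAT. Ratios divide the deposited values without a pseudocount, and intervals come from the reads with scipy 1.17.1 (Python 3.11.15). The scripts were tested on simulated data. Exon lengths are unions of exons in GENCODE M21 (GRCm38), which is later than the authors' annotation.

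The members and lists were chosen with earlier results of these data known. All 10 members are named, and so are, in the lists of other T-box and GATA genes, cofactors, partners and targets, the genes past the threshold, up to 6 per list, and the genes behind any count of at most 5. Marker genes of cell types fall outside this rule. The values of 1 gene of the target list are not reported here. Other genes in the text were chosen after their values were seen. With 2 libraries likeness of pattern is only the ratio, so no gene is named for likeness. Alternatives were other filters, 5 other scalings, 0.5 CPM added, the whole interval past the threshold and, chosen after seeing the data, the recovered reads in place of the deposited values.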

Additional observations from a re-analysis of the deposited data

How the results depend on the processing

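Against 4 members and 2429 genes past the threshold as reported (66.6% of these genes higher), the counts were 2 members (Gata5 and Tbx18) and 1418 genes with 0.5 CPM added to both libraries, 1 member (Tbx18) and 756 genes with the whole interval past the threshold, and 2 members (Tbx20 and Tbx18) and 2685 genes with the ribosomal protein genes set to a ratio of 1 (80.2% higher). With CPM above 0.5 in both libraries the count over all genes was 1507, and with no filter 4620 (49.1% higher), with Tbx2, Tbx18, Tbx20 and Gata5 below the threshold in both. The other alternatives kept these 4 members and moved the count over all genes by less than 1.5 times. Of 63 ratios of single members under 7 alternatives, 62 stayed within the counting interval of the reported ratio. Only Gata6 left it, with 0.689 when the ribosomal protein genes were set to 1. Tbx18 ranged from 0.371 to 0.426 and was the only member past the threshold under every alternative. Tbx3 ranged from 0.929 to 1.07. No paired analysis was possible because each genotype has 1 library, and no library could be left out. Depth limits Tbx20, Tbx4 and Tbx5 most, with 50 reads or fewer each in P2Y4 KO PAT.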
